A study of Mus musculus with 6 samples.

Results

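The distal convoluted tubule and its WNK kinase pathway were represented by 10 genes, taken as the rows of the deposited table whose Ensembl identifiers map to these symbols in GENCODE M21: *Slc12a3*, *Wnk1*, *Wnk4*, *Stk39*, *Oxsr1*, *Klhl3*, *Cul3*, *Trpm6*, *Pvalb* and *Calb1*. Each symbol matched 1 row, so that 10 of the 54532 genes in the table belong here, and all 10 passed the filter on low counts in a fit of 16017 genes. Whole kidneys came from male mice on the C57BL/6 background that carried KsprtTA alone (Control, which the labels call WT) or KsprtTA together with TRE-Adiponectin (KSPAPN, adiponectin overexpression). Both groups received doxycycline at 600 mg/kg in chow for 4 days. KsprtTA expresses the doxycycline-dependent activator in epithelium all along the renal tubule, the distal convoluted tubule included, so the transgene is not limited to this segment. Each library held RNA pooled from 3 mice, and 3 libraries per group stand for 9 mice. No age of these mice was found in the labels or methods. The spread between libraries is thus a spread between pools.

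The distal convoluted tubule is the short segment after the thick ascending limb where sodium and chloride are taken up by the thiazide-sensitive cotransporter NCC. WNK kinases sense chloride and potassium, and activate the kinases SPAK and OSR1, which phosphorylate NCC. WNK kinases are removed by a ubiquitin ligase made of KLHL3 and CUL3, and defects of this system cause familial hyperkalemic hypertension, while loss of NCC causes Gitelman syndrome. Most of this control acts on proteins through phosphorylation and degradation, which RNA counts do not measure. The segment is also where magnesium is reclaimed through the channel TRPM6, and its later part takes up calcium with the help of calbindin.

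No gene of the 10 differed between KSPAPN and Control at an adjusted p under 0.05 (edgeR's quasi-likelihood test, two-sided, Benjamini-Hochberg adjustment over all 16017 genes), where 2.65% of all genes tested did. At an unadjusted p under 0.05 the count was 1 of 10, *Slc12a3*, beside 18.7% of all genes tested, 11.2% lower and 7.52% higher. DESeq2 also gave 0 of 10 after adjustment, where it called 6.52% of 14165 genes, and 1 before it. The libraries of both groups were separate, without overlap, in 2 of the 10. These were *Slc12a3*, for NCC, which was lower in KSPAPN by 0.36 on the log2 scale (standard error 0.14), and *Oxsr1*, for OSR1, which was higher by 0.18 (standard error 0.085). Groups without overlap were found in 24.5% of all genes tested, so 2 of 10 is near the background. The median log2 fold change of the 10 was 0.026, and that of all genes tested 0.012. In bulk tissue, fewer cells of a segment and less RNA per cell cannot be told apart.

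*Adipoq* checked the labels, with 0 to 2 reads in each Control library and 17483 to 26811 in each KSPAPN library. Total counts on genes were between 17183358 and 18205023 in Control and between 18150442 and 20871173 in KSPAPN. The labels speak of liver in the extraction text. *Alb*, for albumin and a defining hepatocyte gene, was at 0.27 to 4.46 FPKM (reads scaled by gene length and library size, as the authors computed it), while the 8 proximal tubule markers summed to between 1848 and 2464 FPKM. The 6 hepatocyte markers summed to between 79.5 and 162 FPKM in Control and between 50.4 and 81.7 FPKM in KSPAPN. Most of that sum was *Ttr*, for the carrier protein transthyretin, which was at 38.3 to 145 FPKM and fell in KSPAPN (log2 fold change -1.17; edgeR adjusted p = 0.0388). All 6 markers of the distal convoluted tubule (*Slc12a3*, *Trpm6*, *Pvalb*, *Calb1*, *Wnk4* and *Klhl3*) were counted in every library and summed to between 241 and 302 FPKM in Control and between 205 and 276 FPKM in KSPAPN. KSPAPN replicate 1 stood apart in the summed markers of neighboring segments, but not in every marker. The 6 principal cell markers summed to 620 FPKM there and to between 306 and 463 FPKM in the other 5 libraries, and the 6 thick ascending limb markers to 1191 against 910 to 1040 FPKM. In KSPAPN replicate 1, most of the first sum was *Aqp2*, the water channel of the collecting duct, at 537 FPKM. Most of the second was *Umod*, at 795 FPKM. *Slc12a1* and *Ptger3* were also highest there, at 307 and 11.6 FPKM. *Aqp4*, *Fxyd4* and *Cldn10*, of the same lists, were lowest there, at 6.25, 12.1 and 47.7 FPKM, and the rest were in between.

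Promoter windows from RefSeq (GRCm38.p6, from 250 bases before to 50 bases after the transcription start) were matched by symbol for 9 of the 10 genes. Of these, 3 are shown, in the direction of the gene, because they belong to the pair of genes whose libraries did not overlap between groups and to the gene with the largest difference. Capitals mark every CpG dinucleotide and the TATA box sequence TATAAA. The windows are *Slc12a3* at chr8:94328958-94329257 (plus strand), *Oxsr1* at chr9:119322378-119322677 (minus strand) and the outer of the pair of *Pvalb* starts at chr15:78206351-78206650 (minus strand).
Slc12a3: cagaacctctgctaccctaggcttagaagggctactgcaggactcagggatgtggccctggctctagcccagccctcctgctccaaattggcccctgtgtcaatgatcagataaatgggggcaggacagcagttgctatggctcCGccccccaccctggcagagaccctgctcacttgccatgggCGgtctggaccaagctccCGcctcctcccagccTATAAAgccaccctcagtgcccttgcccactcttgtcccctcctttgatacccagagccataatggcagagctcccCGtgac
Oxsr1: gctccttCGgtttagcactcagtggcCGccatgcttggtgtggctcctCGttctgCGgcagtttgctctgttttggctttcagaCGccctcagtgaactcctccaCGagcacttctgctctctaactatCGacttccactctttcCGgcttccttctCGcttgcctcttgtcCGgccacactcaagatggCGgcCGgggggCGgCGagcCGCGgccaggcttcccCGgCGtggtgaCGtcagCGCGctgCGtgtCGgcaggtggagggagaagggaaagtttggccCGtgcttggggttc
Pvalb: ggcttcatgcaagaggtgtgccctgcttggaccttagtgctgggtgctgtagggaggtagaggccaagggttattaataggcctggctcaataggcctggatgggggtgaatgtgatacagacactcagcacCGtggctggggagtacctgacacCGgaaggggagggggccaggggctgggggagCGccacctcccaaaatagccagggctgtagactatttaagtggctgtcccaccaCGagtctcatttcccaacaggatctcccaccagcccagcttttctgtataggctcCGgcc
The windows differ in CpG content. Across all 32851 windows of 300 bases the median number of CpG dinucleotides was 7 and the upper quartile 20. The windows of *Slc12a3*, *Klhl3* and *Trpm6* had 4, 8 and 9, and the outer *Pvalb* window had 5. Those of *Oxsr1*, *Cul3*, *Wnk1* and *Stk39* had 24, 29, 32 and 49. *Wnk4* had 21 and the inner *Pvalb* window 25. The sequence TATAAA, searched on both strands, was in 1 of the 10 member windows, that of *Slc12a3*, where it begins 32 bases before the start, and in 13.6% of all windows. These matches describe the letters of the windows only.

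Ordered by mean FPKM over the 6 libraries, a level per length, *Calb1* (92.1) and *Slc12a3* (80.7) were the most abundant of the 10, above 96.997% and 96.5% of the genes tested. *Wnk4* (53.6), *Cul3* (26.1), *Wnk1* (18.0), *Pvalb* (14.9), *Oxsr1* (11.8), *Klhl3* (7.80), *Stk39* (6.55) and *Trpm6* (2.73) followed. Between neighbors in this order, *Wnk4* and *Cul3*, *Cul3* and *Wnk1*, *Oxsr1* and *Klhl3*, and *Stk39* and *Trpm6* had ranges over the libraries that did not overlap. The ranges of the other neighbors overlapped, and *Calb1* was above *Slc12a3* in 4 of 6 libraries.

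**Figure D1:**
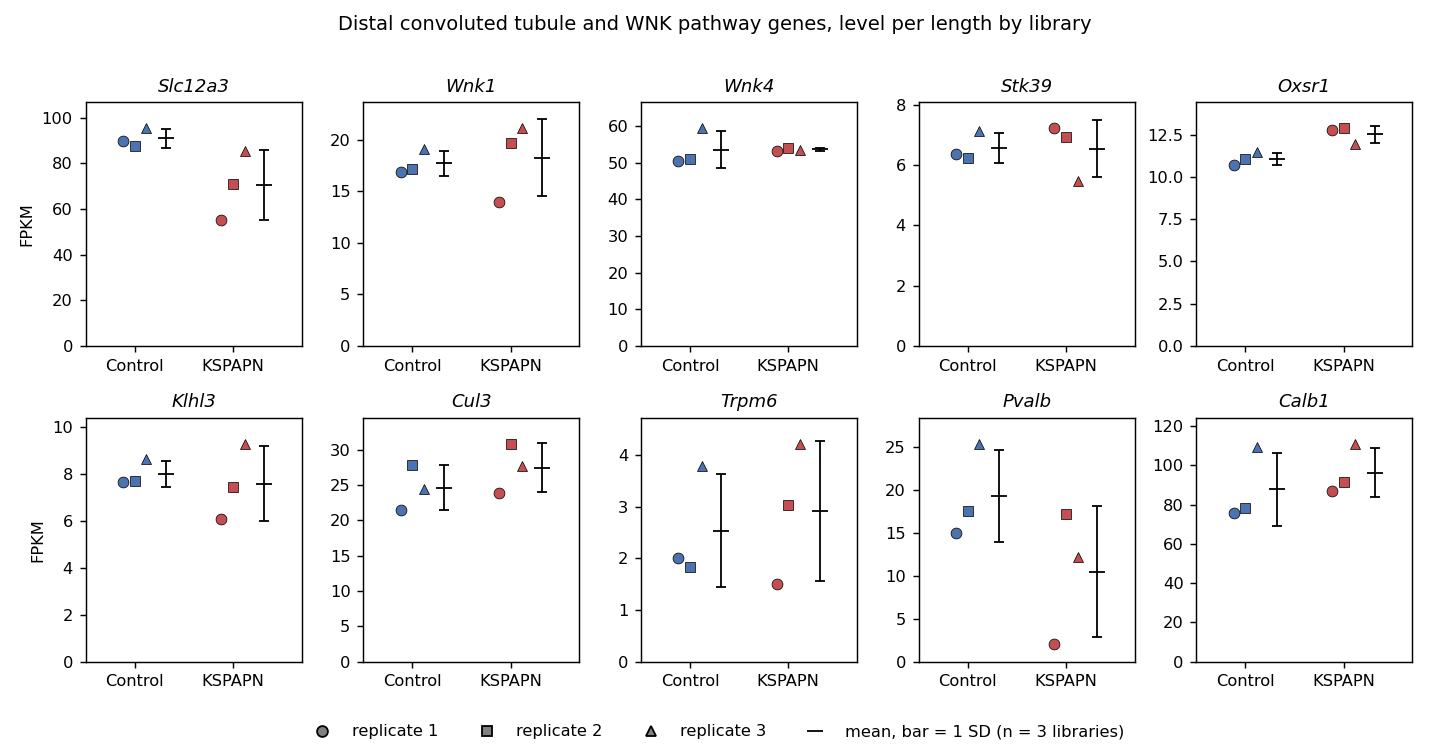
FPKM of each of the 10 genes (vertical axes, each from 0) in the 3 Control and 3 KSPAPN libraries, with points for libraries, shapes for replicate numbers, and mean and SD beside them. *Slc12a3* lies at 87.5 to 95.3 in Control and at 55.2 to 85.5 in KSPAPN, and *Pvalb* is lowest in KSPAPN replicate 1, at 2.10.

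*Slc12a3* (ENSMUSG00000031766, chromosome 8 of GRCm38 from 94329201 to 94366214) encodes NCC, the transporter on which the pathway acts. Its level was 90.0, 87.5 and 95.3 FPKM in the Control libraries and 55.2, 70.9 and 85.5 FPKM in the KSPAPN libraries. Every KSPAPN library was below every Control library, and the 3 KSPAPN libraries were spread more widely than those of Control (two-sided exact permutation test of CPM, reads scaled by library size, p = 0.1, below which 3 against 3 libraries cannot go). The means were 90.9 ± 3.99 and 70.5 ± 15.2 FPKM (SD, n = 3). The log2 fold change was -0.36 (standard error 0.14, 95% interval -0.68 to -0.046), or 0.778-fold. Its adjusted p was 0.207 from edgeR and 0.0952 from DESeq2. Between 14290 and 19696 reads were counted on the gene per library, so that counting error is small beside the spread between pools. The size of the difference depended on KSPAPN replicate 1, the lowest of the 6, and the log2 fold change was -0.20 without it (adjusted p = 0.315 from edgeR). Without Control replicate 1 the adjusted p also rose, to 0.430, though the log2 fold change was -0.37. The p-values of these smaller fits thus do not single out KSPAPN replicate 1. KSPAPN replicate 1 had the highest sums of the principal cell and thick ascending limb markers given above, though *Aqp4*, *Fxyd4* and *Cldn10* were lowest there. The part of these markers in the result was not tested.

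The kinases at the head of the pathway were at like levels in both groups. *Wnk4* (ENSMUSG00000035112, chromosome 11 from 101260567 to 101277409) encodes the WNK kinase most associated with the distal convoluted tubule. It was at 50.5, 50.9 and 59.4 FPKM in Control and at 53.3, 54.1 and 53.6 FPKM in KSPAPN. The KSPAPN values lay inside the range of Control, and the log2 fold change was 0.0076 (standard error 0.094, 95% interval -0.20 to 0.22). *Wnk4* shares 306 of its 4148 exon bases with *Gm11615* on the opposite strand. Without stated strandedness these reads cannot be told apart, but *Gm11615* had only 54 to 100 reads per library against 3665 to 5149 on *Wnk4*. *Wnk1* (ENSMUSG00000045962, chromosome 6 from 119923969 to 120038672) is broadly expressed, and the kidney also makes a shorter form from an internal promoter that lacks most of the kinase domain. GENCODE M21 lists 26 transcripts of *Wnk1*, and a count per gene does not separate them. *Wnk1* was at 16.9, 17.1 and 19.1 FPKM in Control and at 14.0, 19.6 and 21.1 FPKM in KSPAPN. The KSPAPN libraries lay on both sides of Control, and the log2 fold change was 0.045 (standard error 0.14, 95% interval -0.26 to 0.35).

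*Stk39* and *Oxsr1* encode SPAK and OSR1, the related kinases that WNK kinases activate and that phosphorylate NCC. *Oxsr1* (ENSMUSG00000036737, chromosome 9 from 119238432 to 119322427) was at 10.7, 11.1 and 11.4 FPKM in Control and at 12.8, 12.9 and 11.9 FPKM in KSPAPN. No Control library reached the lowest KSPAPN library, by a small margin. The log2 fold change was 0.18 (standard error 0.085, 95% interval -0.0036 to 0.37), and the adjusted p was 0.277 from edgeR and 0.409 from DESeq2. *Stk39* (ENSMUSG00000027030, chromosome 2 from 68210445 to 68472268) was at 6.36, 6.21 and 7.12 FPKM in Control and at 7.21, 6.93 and 5.45 FPKM in KSPAPN. Its groups overlapped, with KSPAPN replicate 3 lowest and KSPAPN replicate 1 highest of the 6, and the log2 fold change was -0.00062 (95% interval -0.28 to 0.28).

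*Klhl3* and *Cul3* encode the substrate adaptor and the scaffold of the ubiquitin ligase that degrades WNK kinases. *Klhl3* (ENSMUSG00000014164, chromosome 13 from 58000228 to 58113592) was at 7.65, 7.73 and 8.65 FPKM in Control and at 6.07, 7.43 and 9.27 FPKM in KSPAPN, a log2 fold change of -0.073 (standard error 0.14, 95% interval -0.38 to 0.23). The KSPAPN libraries included both the lowest and the highest value. *Cul3* (ENSMUSG00000004364, chromosome 1 from 80264923 to 80340480), which serves many other adaptors in all cells, was at 21.5, 27.9 and 24.5 FPKM in Control and at 24.0, 30.8 and 27.7 FPKM in KSPAPN. The groups overlapped, and the log2 fold change was 0.16 (standard error 0.12, 95% interval -0.10 to 0.43).

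Among the magnesium and calcium genes of the segment, *Trpm6* (ENSMUSG00000024727, chromosome 19 from 18749983 to 18892511), for the apical magnesium channel, had the lowest level of the 10. It was at 1.998, 1.83 and 3.79 FPKM in Control and at 1.504, 3.04 and 4.21 FPKM in KSPAPN, from 206 to 568 reads per library. Its values varied more within groups than between them, by 42.9% (coefficient of variation) in Control and 46.5% in KSPAPN, and the 95% interval of its log2 fold change of 0.20 ran from -0.58 to 0.99. *Calb1* (ENSMUSG00000028222, chromosome 4 from 15881264 to 15908064), for the calcium buffer calbindin of the late segment and connecting tubule, was at 75.7, 78.5 and 109 FPKM in Control and at 86.9, 91.4 and 111 FPKM in KSPAPN. The third replicate was the highest in each group, and the log2 fold change was 0.14 (standard error 0.15, 95% interval -0.20 to 0.47). It was 0.33 without Control replicate 3, 0.040 and 0.064 without Control replicates 1 and 2, and 0.22 and 0.030 without KSPAPN replicates 1 and 3.

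*Pvalb* (ENSMUSG00000005716, chromosome 15 from 78191114 to 78206400) encodes parvalbumin, a calcium buffer of the early distal convoluted tubule. It had the largest difference of the 10 and the widest error. The Control libraries were at 15.03, 17.6 and 25.4 FPKM and the KSPAPN libraries at 2.10, 17.2 and 12.2 FPKM. KSPAPN replicate 1, with 51 reads against 264 to 464 in the other 5 libraries, was far below the rest, while KSPAPN replicate 2 was inside the Control range. The log2 fold change was -0.89 (standard error 0.51, 95% interval -2.03 to 0.25; adjusted p = 0.384 from edgeR). Without KSPAPN replicate 1 it was -0.38 (adjusted p = 0.355 from edgeR) and without KSPAPN replicate 2 it was -1.43 (adjusted p = 0.23). Skeletal muscle also expresses *Pvalb*, and its 6 markers summed to between 0.814 and 1.04 FPKM in Control and between 0.959 and 1.41 in KSPAPN. *Myh1* was at 0 in all libraries, and *Acta1*, *Ckm* and *Myh4* were at 0 in the 3 Control libraries and at no more than 0.126 FPKM in KSPAPN. The other 2, *Mylpf* and *Tnnt3*, were at 0.711 to 1.08 and at 0 to 0.274 FPKM, and made up the Control sums. In Control replicate 3, where *Pvalb* was highest, the muscle sum was the highest of Control, at 1.04 FPKM. The muscle sum was higher in KSPAPN replicates 2 and 3, at 1.33 and 1.41 FPKM, where *Pvalb* was lower. The part of muscle in the *Pvalb* level was not tested.

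**Figure D2:**
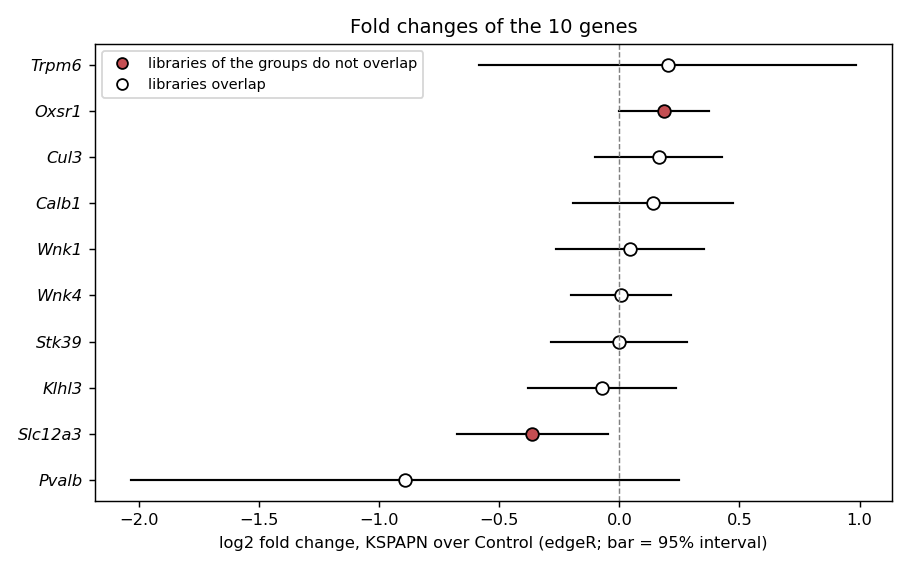
Log2 fold changes of the 10 genes, KSPAPN over Control, from edgeR (horizontal axis), with 95% intervals as bars. Filled points mark the pair of genes whose libraries did not overlap between groups. The interval of *Slc12a3* lies below 0 (-0.68 to -0.046), those of the other 9 include 0, and that of *Pvalb* is the widest (-2.03 to 0.25).

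By library, KSPAPN replicate 1 had the lowest FPKM in 5 of the 10 genes (*Slc12a3*, *Wnk1*, *Klhl3*, *Trpm6* and *Pvalb*) and the highest in 1, *Stk39*. Control replicate 1 was lowest in 4 genes (*Wnk4*, *Oxsr1*, *Cul3* and *Calb1*) and highest in none. KSPAPN replicate 3 was highest in 4 (*Wnk1*, *Klhl3*, *Trpm6* and *Calb1*), and Control replicate 3 in 3 (*Slc12a3*, *Wnk4* and *Pvalb*). The 10 genes thus did not vary as 1 block, but not all of them are limited to the segment. Of the markers of the segment, *Slc12a3*, *Klhl3*, *Trpm6* and *Pvalb* were lowest in KSPAPN replicate 1, and *Wnk4* and *Calb1* in Control replicate 1. As a measure of likeness, log2 CPM values were centered on their mean over the 6 libraries and compared with *Slc12a3* by their root mean square difference, among 12247 genes with a mean of at least 1 FPKM. *Klhl3* was the member most like *Slc12a3*, with a difference of 0.15 and place 165. *Pvalb* differed most, with 0.917 and place 12156. The 5 genes nearest to *Slc12a3* were *Gna14* (0.0378), *Gm3137* (0.0561), *Ybx2* (0.0623), *Cxcl16* (0.0682) and *Akr1b10* (0.0694). Their log2 fold changes were between -0.39 for *Ybx2* and -0.29 for *Cxcl16*, and none had an adjusted p under 0.05. Fold changes near that of *Slc12a3* follow from how these genes were picked and are no separate result. These places rest on 6 values per gene.

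Ratios of a pair of genes within a library do not depend on how libraries are scaled, and 5 were compared by two-sided exact permutation tests, in which 6 libraries give 20 arrangements and no p can be under 0.1. *Slc12a3* was set against *Slc12a1*, which encodes NKCC2, the cotransporter of the neighboring thick ascending limb and also a target of SPAK and OSR1. The ratio of their FPKM was 0.462, 0.481 and 0.452 in Control and 0.179, 0.255 and 0.339 in KSPAPN. All 3 KSPAPN ratios were below all 3 of Control, which lay close together. On the log2 scale the means were -1.10 ± 0.045 and -2.003 ± 0.46 (SD, n = 3), a difference of -0.90 (standard error 0.27; exact p = 0.1, adjusted over the 5 ratios 0.25). Leaving out 1 library at a time gave differences from -1.12 to -0.66. *Slc12a1* was itself higher in KSPAPN (log2 fold change 0.52, beside -0.36 for *Slc12a3*), so this ratio does not measure *Slc12a3* alone. *Calb1* over *Slc12a3* was 0.841, 0.898 and 1.15 in Control and 1.57, 1.29 and 1.30 in KSPAPN, again without overlap, and the mean log2 ratio was higher in KSPAPN by 0.53 (standard error 0.17; exact p = 0.1, adjusted 0.25). These 2 ratios share *Slc12a3*, and neither was corrected for GC content or length. With that correction in edgeR, the log2 fold change of *Calb1* was -0.076 in place of 0.14. That of *Slc12a1* was 0.42 in place of 0.52, and that of *Slc12a3* -0.34 in place of -0.36.

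In the other 3 ratios the groups overlapped. *Pvalb* over *Slc12a3*, both genes of the segment, was 0.167, 0.201 and 0.266 in Control and 0.0381, 0.242 and 0.143 in KSPAPN, a difference of -0.92 on the log2 scale (standard error 0.82; exact p = 0.4, adjusted 0.5). *Wnk4* over *Wnk1* was 2.98, 2.97 and 3.10 in Control and 3.81, 2.76 and 2.54 in KSPAPN. The KSPAPN values lay on both sides of Control, with a difference of -0.015 (standard error 0.18; exact p = 1). *Stk39* over *Oxsr1* was 0.595, 0.562 and 0.622 in Control and 0.565, 0.539 and 0.457 in KSPAPN, a difference of -0.19 (standard error 0.10; exact p = 0.2, adjusted 0.333). There was less RNA of *Stk39* than of *Oxsr1* per length in every library of whole kidney.

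**Figure D3:**
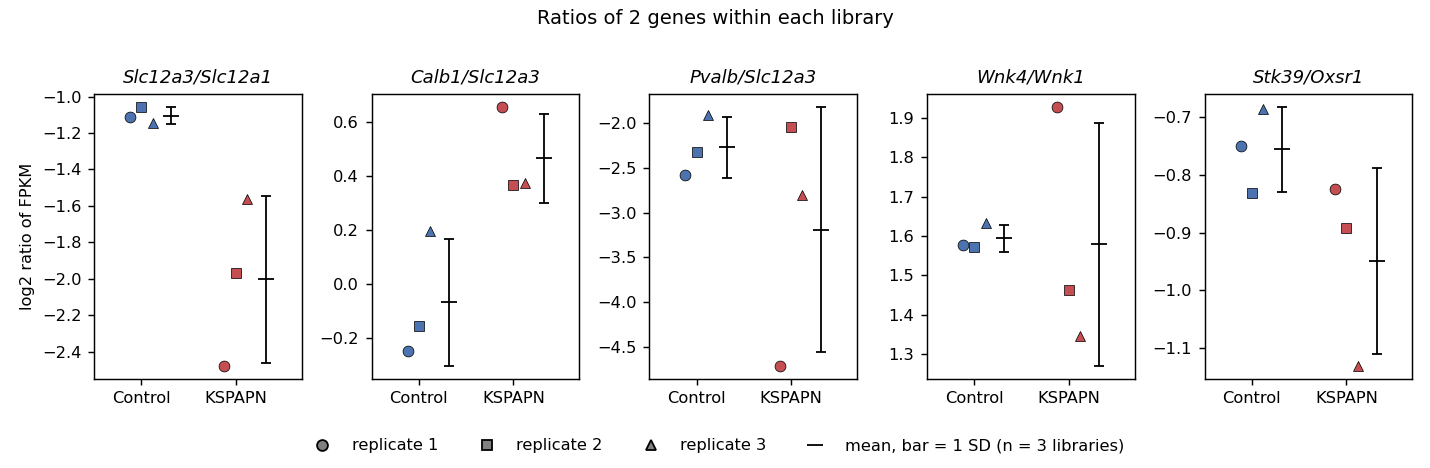
Log2 ratio of the FPKM of a pair of genes within each library (vertical axes, not from 0), for 5 pairs, with points for libraries and mean and SD beside them. *Slc12a3* over *Slc12a1* is lower in all 3 KSPAPN libraries (-2.48 to -1.56) than in the Control libraries (-1.14 to -1.06), and *Wnk4* over *Wnk1* spreads on both sides of Control.

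The other genes of the pathway and the segment were taken from 6 lists with 58 genes, of which 57 passed the filter on low counts. Past the adjusted threshold of edgeR, 1 of the 57 rose and 2 fell in KSPAPN, beside 0.393% and 2.25% of all genes tested. DESeq2 called 8, and 6.52% of the 14165 genes to which it gave an adjusted p. It gave none to *Wnk3* and *Slc12a8*. The groups did not overlap in 15 of the 57, or 26.3%, beside 24.5% of all genes tested.

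The gene that rose was *Slc12a1*, and it was 1 of 8 other cotransporters of the SLC12 family, several of which carry chloride together with sodium or potassium and are substrates of SPAK and OSR1. *Slc12a1* was at 195, 182 and 211 FPKM in Control and at 307, 278 and 252 FPKM in KSPAPN. The groups were far apart, and the log2 fold change was 0.52 (standard error 0.11; edgeR adjusted p = 0.0437, DESeq2 2.51e-04). Leaving out 1 library at a time gave values from 0.45 to 0.59. The adjusted p from edgeR was above 0.05 without any 1 of 5 libraries, from 0.0744 without Control replicate 3 to 0.193 without Control replicate 1, and stayed under it only without KSPAPN replicate 1. It was 0.0878 after a correction for GC content and length. Over the family, 7 of 8 log2 fold changes were positive and their median was 0.30. *Slc12a7*, for the potassium chloride cotransporter KCC4, was the other way at -0.33 (standard error 0.091; edgeR adjusted p = 0.0882, DESeq2 0.038), and is named after its value was seen. After the correction for GC content and length it was called by edgeR (-0.37, adjusted p = 0.0271).

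Of the 12 partners of the WNK cascade, which include the other WNK kinases, the MO25 proteins that SPAK and OSR1 bind, the adaptor *Klhl2*, *Nedd4l*, *Sgk1* and subunits of phosphatases that act on NCC, 0 passed the adjusted threshold in edgeR and 3 were higher at an unadjusted p under 0.05, beside 7.52% of all genes tested. The median log2 fold change was 0.098. The lowest was *Ppp1r1a*, for an inhibitor of protein phosphatase 1 found in the distal convoluted tubule, at 98.5 ± 16.0 and 80.6 ± 13.6 FPKM (SD, n = 3; log2 fold change -0.28, standard error 0.15). The highest was *Wnk3*, which was near the lower end of detection with 5 to 34 reads per library (log2 fold change 1.17, standard error 0.62). It shares 523 of its 10589 exon bases with *A230072E10Rik* on the opposite strand, which had 4 to 14 reads. *Wnk2*, named because DESeq2 called it, was at 0.872, 1.07 and 1.38 FPKM in Control and at 2.91, 1.41 and 1.77 FPKM in KSPAPN. Its log2 fold change was 0.89 (standard error 0.27; edgeR adjusted p = 0.114, DESeq2 0.0141), at a level far below those of *Wnk1* and *Wnk4*. Without KSPAPN replicate 1 its log2 fold change was 0.54, and after the correction for GC content and length it was called by edgeR (0.92, adjusted p = 0.0368).

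Of 15 genes for basolateral transport and magnesium handling in the segment, 14 were tested and 0 passed the adjusted threshold in edgeR, with 1 higher and 1 lower at an unadjusted p under 0.05 (7.52% and 11.2% of all genes tested) and a median log2 fold change of -0.068. *Kcna1*, the gene not tested, had 0 to 8 reads per library. *Kcnj10*, for a potassium channel of the basolateral membrane, had a log2 fold change of -0.098. *Fxyd2*, for a subunit of the sodium pump, had the lowest value, at 544, 485 and 463 FPKM in Control and 409, 382 and 358 FPKM in KSPAPN. Its groups did not overlap (log2 fold change -0.37, standard error 0.11; edgeR adjusted p = 0.107, DESeq2 0.0135). After the correction for GC content and length the log2 fold change of *Fxyd2* was -0.25 (adjusted p = 0.164 from edgeR). *Slc41a3*, for a magnesium transporter, had the highest, at 1.24 ± 0.304 and 2.08 ± 0.223 FPKM (SD, n = 3; log2 fold change 0.75, standard error 0.24; edgeR adjusted p = 0.123).

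Of 8 genes for distal calcium transport and its receptors, *Pth1r* fell at the adjusted threshold and 7 did not pass it, with a list median of -0.032. *Pth1r*, for the parathyroid hormone receptor, which is also abundant in the proximal tubule, was at 245, 234 and 225 FPKM in Control and at 167, 168 and 165 FPKM in KSPAPN. Each group lay within a narrow range and the ranges were far apart (95 of its 2925 exon bases are shared with *Myl3*, which had 7 to 19 reads per library). On the log2 scale the difference was -0.49 (standard error 0.088), with adjusted p = 0.0222 in edgeR and 2.63e-05 in DESeq2. Leaving out each library in turn kept the log2 fold change between -0.52 and -0.46, but the adjusted p from edgeR was above 0.05 in 5 of these 6 fits, and after the correction for GC content and length the log2 fold change was -0.32 (adjusted p = 0.137). Of the 8 proximal tubule markers, 7 had negative log2 fold changes, with a median of -0.24, and their part in this result was not tested. *Trpv5* and *S100g*, for the apical calcium channel and the second calcium buffer of the distal nephron, had log2 fold changes of 0.12 (standard error 0.19) and -0.072 (standard error 0.13).

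Of 7 genes for aldosterone-sensitive sodium and potassium transport, 0 passed the adjusted threshold in edgeR, or in DESeq2, and 1 was lower at an unadjusted p under 0.05 (11.2% of all genes tested), with a median of 0.080. *Hsd11b2*, for the enzyme that keeps glucocorticoids from the mineralocorticoid receptor, had the lowest log2 fold change at -0.30 (standard error 0.098; edgeR adjusted p = 0.133). *Nr3c2*, for that receptor, had the highest at 0.23 (standard error 0.12; adjusted p = 0.337), at 2.60 ± 0.181 and 3.05 ± 0.0889 FPKM (SD, n = 3).

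Of 8 transcription factors of the distal nephron, *Emx1* fell at the adjusted threshold. This homeobox gene was at 21.2, 18.1 and 18.7 FPKM in Control and at 15.04, 13.1 and 13.3 FPKM in KSPAPN. Every KSPAPN library was below every Control library (log2 fold change -0.48, standard error 0.11; edgeR adjusted p = 0.0483, DESeq2 0.0132). The call was at the edge of the threshold and was lost in edgeR without any 1 of 5 libraries, all but KSPAPN replicate 1, and after the correction for GC content and length the log2 fold change was -0.091 (adjusted p = 0.764). *Sall3* and *Irx1*, for a zinc finger and a homeobox factor, were called by DESeq2 but not by edgeR. They had log2 fold changes of -0.84 (standard error 0.22) and -0.81 (standard error 0.20), with adjusted p of 0.0756 and 0.0602 from edgeR. Both are named after their values were seen. *Sall3* had only 56 to 120 reads per library. *Irx1* was at 31.7, 18.1 and 21.7 FPKM in Control and at 15.7, 13.9 and 11.1 FPKM in KSPAPN. Without Control replicate 1 its log2 fold change was -0.55 (adjusted p = 0.213 from edgeR). *Tfap2b* had the highest value of the list at 0.25 (standard error 0.088), and the list's median was -0.0074.

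**Figure D4:**
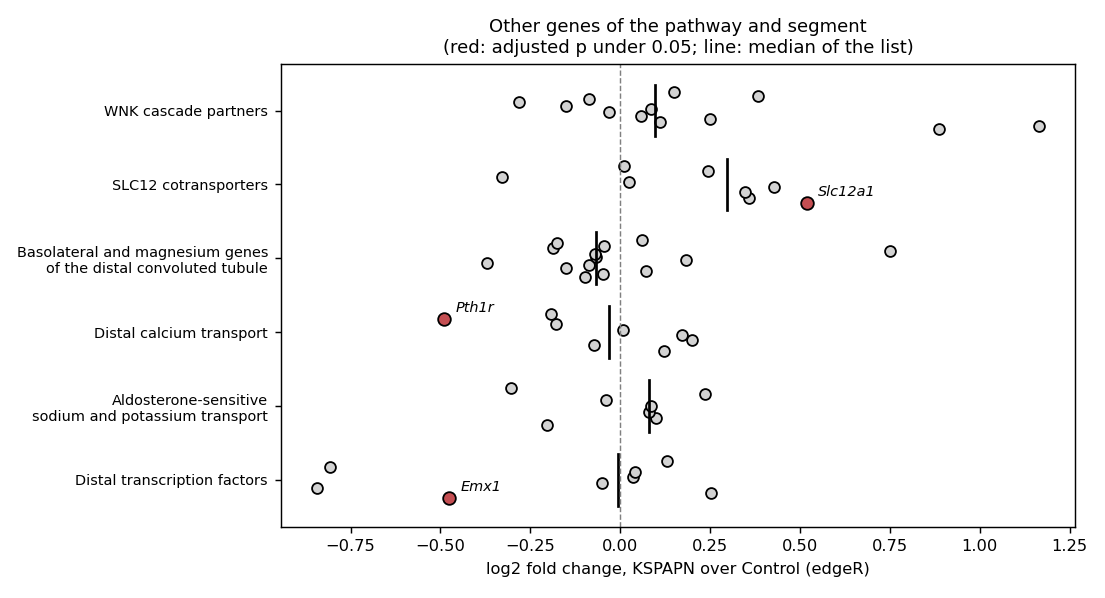
Log2 fold changes, KSPAPN over Control, from edgeR (horizontal axis) of the 57 tested genes of 6 lists (rows), with a vertical line at each list's median. The 3 filled points passed an adjusted p of 0.05: *Slc12a1* at 0.52, *Pth1r* at -0.49 and *Emx1* at -0.48.

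**Figure D5:**
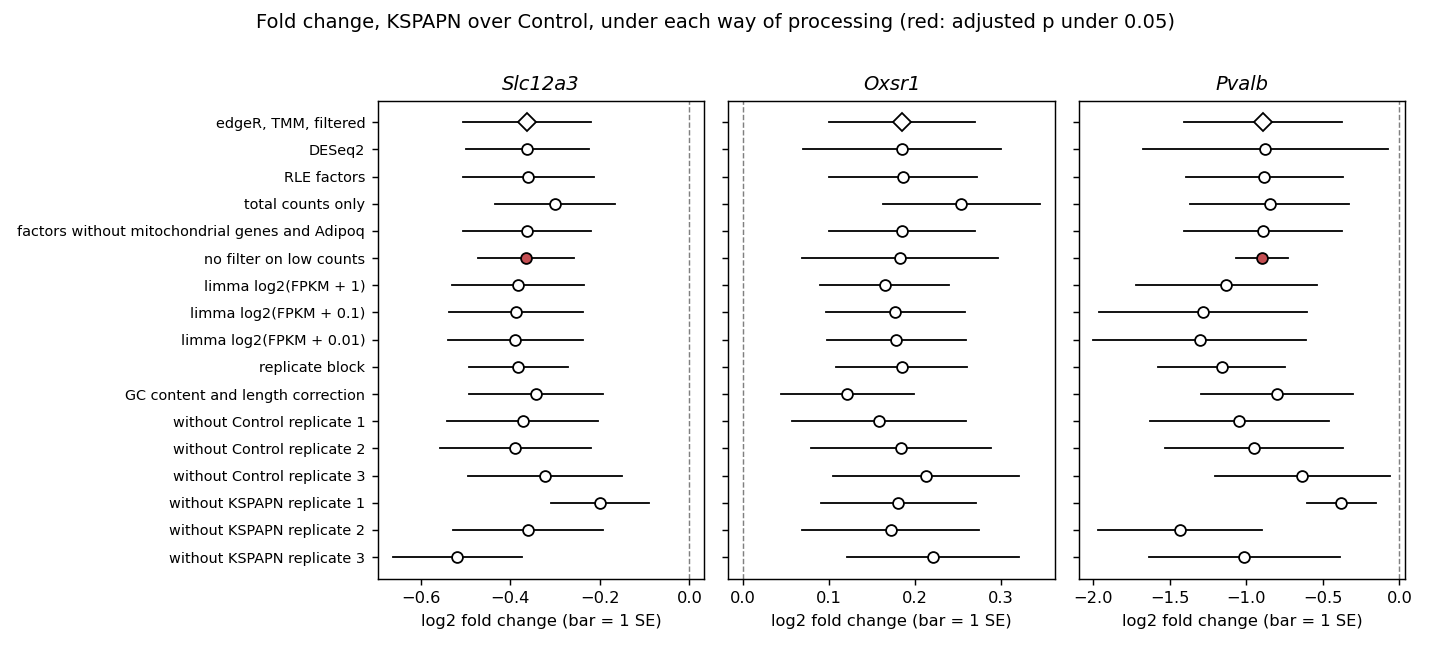
Log2 fold change (horizontal axes, with 1 standard error as bars) of *Slc12a3*, *Oxsr1* and *Pvalb* in the first fit and under 16 other ways of processing (rows). *Slc12a3* stays between -0.52 and -0.20 and *Oxsr1* between 0.12 and 0.25, and the filled points, in the fit without a filter on low counts, are the only ones with an adjusted p under 0.05.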

How the data were processed

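Whole-kidney mRNA from 3 Control and 3 KSPAPN pools was enriched with oligo(dT) beads and sequenced. The authors deposited raw read counts per gene, without normalization, and FPKM, scaled by gene length and library size, with the library total used not stated. STAR 2.5, TopHat, HTSeq 0.6.1, DESeq2 and edgeR are named in the submitters' processing notes, with no role given. Build, annotation and strandedness: not given in the sources used here. Nothing in those sources says that pools of a group came from separate cohorts, so p-values measure at most the spread between these pools. Of 54532 identifiers, 54495 matched GENCODE M21 (GRCm38).

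Counts were fitted with edgeR 4.0.16 in R 4.3.3, with TMM factors, filterByExpr (at least 10 reads by its rule and 15 in all) and the quasi-likelihood test. Intervals at 95% used the fit's standard errors. Alternatives were DESeq2 1.42.0, RLE factors, total counts only, factors without mitochondrial genes and *Adipoq*, no filter, limma 3.58.1 on log2(FPKM + 1), log2(FPKM + 0.1) and log2(FPKM + 0.01), a replicate block, offsets for each library's trend along GC content and transcript length (natural splines, 5 degrees of freedom each), and each library left out. Fits were tested on simulated data. Exact tests used SciPy 1.17.1, and tables pandas 2.3.3 under Python 3.11.15.

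The members and lists were chosen with earlier results of these data known. The text names all members, the genes of each list at an adjusted p under 0.05 or else its lowest and highest, the 5 genes nearest to *Slc12a3*, and others said to be named after their values were seen. *Alb*, *Ttr*, *Aqp2*, *Aqp4*, *Fxyd4*, *Umod*, *Ptger3*, *Cldn10*, *Slc12a8*, *Kcna1*, *Kcnj10*, *Trpv5*, *S100g*, *Tfap2b*, and the muscle markers were also chosen after their values were seen. Intervals cover no error of mapping. Sequences came from RefSeq.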

Additional observations from a re-analysis of the deposited data

How the results depend on the processing

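Of the 160 fold changes of the 10 genes under other processing, 145 kept their sign and side of the threshold. Without a filter on low counts, 2 members were called lower, *Slc12a3* (adjusted p = 0.0179 from edgeR) and *Pvalb* (1.02e-05), and the cause was not tested. In that fit the standard errors of *Slc12a3*, *Wnk1* and *Calb1* were all 0.107. That of *Pvalb* was 0.17, against 0.51 in the first fit. These p-values thus hardly hold each gene's own spread between pools, and they are not read as a result. *Stk39* was at 0.00099 with RLE factors and at 0.069 with total counts only. After the correction for GC content and length, *Wnk1* was at -0.057, *Cul3* at -0.035 and *Calb1* at -0.076. With libraries left out in turn, the log2 fold change was between -0.036 and 0.091 for *Wnk4*, -0.069 and 0.12 for *Stk39*, -0.24 and 0.079 for *Klhl3*, -0.067 and 0.22 for *Wnk1*, -0.16 and 0.62 for *Trpm6*, 0.030 and 0.33 for *Calb1*, and 0.073 and 0.27 for *Cul3*, and the difference in log2 ratio of *Wnk4* over *Wnk1* between -0.19 and 0.10. No member was called in these fits. In them 0 to 2 of the other pathway genes were called higher and 0 to 3 lower, and of all genes 5 to 162 higher and 34 to 571 lower.

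Of the other pathway genes (1 higher, 2 lower) and of all genes (63 higher, 361 lower), DESeq2 called 2 and 6, and 180 and 743. Without the filter the counts were 4 and 6, and 301 and 1038, with the limit on the p-values of that fit given above. Total counts only gave 1 pathway gene and 195 of all genes lower, and the correction for GC content and length 1 pathway gene lower, *Slc12a7*, and 1 higher, *Wnk2*, while *Slc12a1*, *Pth1r* and *Emx1* were no longer called. The limma fits of log2 FPKM with pseudocounts of 1, 0.1 and 0.01 called 0 pathway genes higher and 1, 1 and 0 lower, 10, 10 and 7 of all genes higher and 118, 109 and 95 lower. In limma the calls of *Slc12a1* (adjusted p from 0.0759 to 0.0778) and *Emx1* (0.0683 to 0.0712) were lost in all 3 fits, and that of *Emx1* also with total counts only (0.124, edgeR). Causes were not tested.

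Same-numbered libraries deviated together with correlations of 0.0537, 0.154 and 0.173, and the numbers do not pair the samples by the labels. With the replicate block, 0 members, 3 and 5 other pathway genes and 224 and 705 of all genes were called, and *Slc12a3* had an adjusted p of 0.0846. Among the members, depth limits *Pvalb* and *Trpm6* most, with as few as 51 and 206 reads in a library. Of the other tested pathway genes, *Slc12a8* and *Wnk3* had as few as 3 and 5.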
